A study of Mus musculus with 12 samples.

Results

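Genes of the hypothalamic control of growth and thyroid function were followed in the hypothalamus of mice that drank water alone or alcohol from adolescence on. The 9 genes were the peptide hormone genes Trh, Ghrh, Sst and Gal and the receptor genes Trhr, Sstr1, Sstr2, Sstr3 and Sstr4. The members were chosen by name: every probe that was not a control probe and carried one of these 9 gene symbols was taken, which gave 10 of the 41174 probes on the array, 2 of them for Sstr4. The mice were male, of the outbred ICR strain, and 3 weeks old at the start. All of them first had a pair of tubes of water on days 1 to 5, and the alcohol mice then chose between water and 5% or 10% alcohol, while the water group kept water in both tubes. The labels give day 51 for the sacrifice, whereas the series' design has drinking last to day 57. RNA of dissected hypothalamic tissue, from 3 mice per water pool and 1 to 3 mice per alcohol pool, was labeled with Cy3 and hybridized to 12 arrays. The sample titles name 4 groups of 3 pools, which are the water group and the low, early and late alcohol drinkers. The early and late alcohol drinkers are called early high and late high drinkers here, a word that the titles do not hold. Intake and the strength of the alcohol offered are not given by the sample labels. Per the study's methods, pools of heavier drinkers held fewer mice than pools of lighter drinkers, but the pool names used there are not in the labels.

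The arrays lay 4 to a slide, and the drinking groups were not spread evenly over the slides. Slide 1 carried water pools 1 to 3 and low drinker pool 1, and was scanned on a later day than the other slides. Slide 2 carried 2 low drinker pools (2 and 3) as well as early pools 1 and 2. Slide 3 carried early high drinker pool 3 and late high drinker pools 1 to 3. No slide carried both late high drinkers and water, so a plain difference between these groups is also one between slides 3 and 1. A fit with slide as a fixed block compares them indirectly, through the low and early drinkers that lay on 2 slides each. Of 10 hypothalamic marker genes, 8 were well above background on all 12 arrays (Nkx2-1, Hcrt, Pmch, Avp, Oxt, Agrp, Npy and Nr5a1), Sim1 was on 11 arrays, and Otp was on none. Values below are log2 signal intensities from which the 75th percentile of the same array was subtracted, so that 0 is the signal of that percentile, and levels of different probes are not compared. Low drinker pool 2 stood apart at low signals, with a 25th percentile of 63.2 against 22.3 to 34.0 on the other 11 arrays. Results for Sstr1, Dio3 and Ghrl that rest on it, and the counts over all probes for low drinkers, are given without it too.

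Trh encodes the precursor of thyrotropin-releasing hormone, which neurons of the paraventricular nucleus release into the portal blood of the pituitary and which drives the secretion of thyrotropin through its receptor, Trhr. Ghrh, made in the arcuate nucleus, stimulates the release of growth hormone, and somatostatin (Sst), made in the periventricular nucleus and in many other neurons, inhibits it. Somatostatin acts through a family of G protein-coupled receptors, of which Sstr1, Sstr2, Sstr3 and Sstr4 were on the array by symbol. Galanin (Gal) is a peptide of many hypothalamic neurons that is known for its parts in feeding and in growth hormone release.

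The promoters of Trh, whose values varied most among the 4 hormone genes, and of Sst, whose values hardly moved, are shown to set the regulatory sequence beside the measurements. Each is the stretch of 250 bases before the annotated start, from RefSeq on GRCm38.p6, written 5′ to 3′ on the minus strand, at chr6:92244651-92244900 for Trh and chr16:23890845-23891094 for Sst. Capitals mark TGACG or its reverse complement (the half-site of the cAMP response element), the full element TGACGTCA, which holds the half-site on both strands, and TATAA on the strand of the gene.
Trh: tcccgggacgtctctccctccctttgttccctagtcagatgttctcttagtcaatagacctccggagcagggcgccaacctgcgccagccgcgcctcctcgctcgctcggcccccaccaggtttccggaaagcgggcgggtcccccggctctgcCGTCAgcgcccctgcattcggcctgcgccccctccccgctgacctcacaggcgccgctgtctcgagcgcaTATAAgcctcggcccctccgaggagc
Sst: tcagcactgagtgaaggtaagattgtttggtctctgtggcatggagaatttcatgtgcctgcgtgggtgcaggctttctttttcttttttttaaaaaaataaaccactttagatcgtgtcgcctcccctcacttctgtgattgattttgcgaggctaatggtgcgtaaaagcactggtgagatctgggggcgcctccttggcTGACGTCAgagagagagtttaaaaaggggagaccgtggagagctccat
The Trh window had 68.8% G and C, a half-site that began 96 bases before the start and TATAA that began 26 bases before it. The Sst window had 47.2% G and C and the full element, which began 48 bases before the start. Of 32851 promoter windows of this length, 1.55% held the full element, 17.8% a half-site on either strand, and 16% TATAA on the strand of the gene. Promoters of 7 of the 9 genes were in the table, and the full element was found for Sst and Sstr2 among them. These are matches of letters and say nothing of binding.

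Trh was the hormone gene with the widest spread between arrays, and the spread lay in the high drinkers. Its probe (NM_009426) lies on chromosome 6 at 92192370 to 92192429 (mm9, minus strand) and was well above background on all 12 arrays. The water pools had log2 levels of 0.53, 0.58 and 0.49, and the low drinker pools had 0.51, 0.55 and 0.64. The early high drinker pools had 0.96, 0.79 and 0.57, and the late high drinker pools had 0.99, 0.97 and 0.58. Early high drinker pools 1 and 2 and late high drinker pools 1 and 2 lay above every other array, whereas pool 3 of both groups lay among the water and low drinker pools. All 3 late levels lay above the highest water level, with late pool 3 and water pool 2 both at 0.58, and 12.5% of the probes measured on all arrays had their late arrays above water. The mean level was 0.53 ± 0.045 in water and 0.85 ± 0.23 in late high drinkers (SD, n = 3 for both).

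For Trh the fitted log2 difference between late high drinkers and water was 0.32 (SE 0.12, a 1.24-fold difference; limma, unadjusted p = 0.0292, adjusted p = 0.257). In an exact permutation test the 3 late arrays against the 3 water arrays gave p = 0.1, the smallest that 3 against 3 allows. Between the 6 high and the 3 low drinker arrays the difference was 0.24 (SE 0.11, limma, unadjusted p = 0.0472, adjusted p = 0.336), and the exact permutation p was 0.107. That call held without early pool 3 and without late pool 3, and was lost without any 1 of the other 10 arrays, at differences of 0.20 to 0.28. Early high drinkers differed from water by 0.24 (SE 0.12, limma, unadjusted p = 0.0818). All 9 alcohol arrays against water differed by 0.20 (SE 0.12, limma, unadjusted p = 0.117, adjusted p = 0.819). The order of the group means was late, early, low, water, and limma gave an unadjusted p of 0.553 for late against early and 0.785 for low against water. Early and low drinkers overlapped and were not fitted against each other. Within slide 2, early high drinker pools 1 and 2 lay 0.28 above the 2 low drinker pools there. Within slide 3, the late pools lay 0.28 above early high drinker pool 3, and within slide 1 the difference of low drinker pool 1 from the water mean was -0.021. On slide 2, where the pools were 2 against 2, tissue markers moved as well, since the thalamic sum described below was 12.6 and 14.7 in the low drinker pools and 6.52 and 5.18 in the early ones. The part of these tissues in the slide 2 difference was not tested. The difference of late high drinkers from water was 0.54 with slide as a fixed block (limma, unadjusted p = 0.0776), so its unadjusted p no longer passed 0.05 although its size grew. It also missed 0.05 without water pool 1, water pool 3, late pool 1 or late pool 2, at differences of 0.31, 0.29, 0.24 and 0.25.

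**Figure D1:**
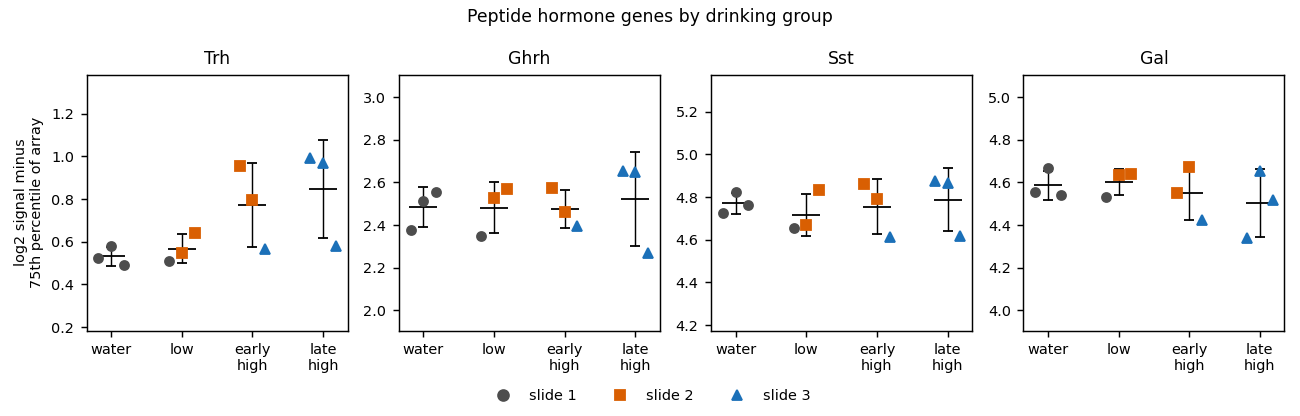
Log2 signal minus the 75th percentile of the array for Trh, Ghrh, Sst and Gal in the 4 groups, with 1 point per pool shaped and colored by slide, and the group mean ± SD as bars. Trh had 4 high drinker pools between 0.79 and 0.99 and every other pool at 0.64 or below, while the 4 groups of Ghrh, Sst and Gal overlapped.

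Signals of tissue marker genes varied between the arrays too, and each sum given here is carried mostly by its members of highest signal. The summed signal of 6 thalamic marker genes (Prkcd, Tcf7l2, Lef1, Gbx2, Synpo2 and Ramp3, all well above background on all 12 arrays) ranged from 7.62 to 9.33 times the 75th percentile in water, 5.76 to 14.7 in low drinkers, 5.18 to 15 in early high drinkers and 10.4 to 21.6 in late high drinkers. Early high drinker pool 3 and late high drinker pool 3, where Trh lay at the level of water, had the highest sums, 15 and 21.6. Low drinker pool 1 had a sum of 5.76 and a Trh level of 0.51. The summed signal of the hypothalamic markers was 180, 191 and 151 times the percentile in early high drinker pools 1 to 3 and 182, 199 and 167 in late high drinker pools 1 to 3, so pool 3 was the lowest of its group here too. The 4 arrays with raised Trh were the 4 with the highest hypothalamic sums, 180 to 199, whereas every other array had 171 or less, with 141 to 171 in water and 152 to 166 in low drinkers. Hcrt, Pmch, Avp and Oxt carried most of this sum, and not all members followed it. Hcrt was at 5.82 and 5.85 on early pools 1 and 2 but at 5.96 on water pool 2, Nkx2-1 was highest on water pool 1 (0.70), and the 3 lowest levels of Nr5a1 were those of the late pools. The summed signal of anterior pituitary markers separated high from low drinkers, though not every gene of it did. The summed signal of the 6 pituitary genes measured (Gh, Prl, Tshb, Cga, Lhb and Fshb, of which Tshb, Cga and Lhb were well above background on all 12 arrays) was 6.97 to 9.44 in low drinkers, 0.944 to 3.39 in early and 3.94 to 6.47 in late high drinkers. In water it ranged from 3.27 to 12.5. Cga carried most of it, with log2 levels of 2.59 to 2.79 in low drinkers and -1.41 to 2.52 in high drinkers. Gh, Lhb and Fshb were also lower on every high drinker array than in low drinkers. Tshb, however, was highest of all arrays on late pool 1 (-2.34), and Prl on that array (-4.77) lay above low drinker pools 2 and 3 (-4.87 and -5.10). The part of pituitary tissue in the differences between high and low drinkers, here and for Sstr1, Dio3 and Ghrhr, was not tested. The part of tissue makeup in the Trh values was not tested either, and in a bulk sample fewer cells of a type and less RNA per cell cannot be told apart.

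**Figure D2:**
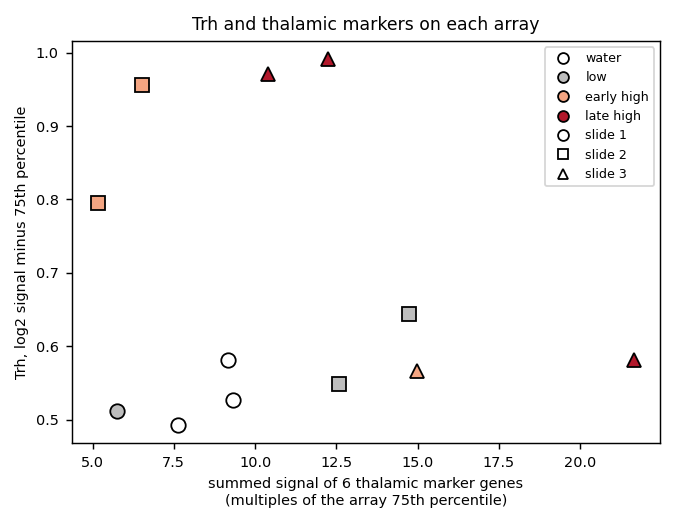
The Trh log2 level of each array against the summed signal of 6 thalamic marker genes in multiples of the 75th percentile of the array, with fill by group and shape by slide. The 4 arrays with Trh from 0.79 to 0.99 had sums of 5.18 to 12.2, and the array with the highest sum, 21.6, had Trh at 0.58.

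Trhr, the receptor for thyrotropin-releasing hormone, did not separate the high drinkers from water. Its probe (NM_013696) lies on chromosome 15 at 44066781 to 44066840 (mm9, plus strand). Its levels were -0.75, -1.19 and -1.05 in water, -0.86, -1.12 and -1.15 in low drinkers, -1.01, -1.14 and -1.26 in early high drinkers and -0.79, -0.98 and -1.10 in late high drinkers. All 4 groups overlapped, and the water pools alone spanned the range of most alcohol arrays. As with Trh, pool 3 was the lowest of both high drinker groups. The difference between all alcohol arrays and water was -0.047 (SE 0.11, limma, unadjusted p = 0.672).

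Ghrh, Sst and Gal were bright on every array and varied little between groups. The Ghrh probe (NM_010285) lies on chromosome 2 at 157155253 to 157155312 (mm9, minus strand). Its levels were 2.38, 2.51 and 2.56 in water, 2.35, 2.53 and 2.57 in low drinkers, 2.57, 2.46 and 2.40 in early high drinkers and 2.65, 2.65 and 2.27 in late high drinkers. The group means lay between 2.48 and 2.52, and the difference between alcohol and water was 0.010 (SE 0.085, limma, unadjusted p = 0.907). Alcohol and water arrays overlapped throughout, since the means were 2.49 ± 0.13 (SD, n = 9) and 2.48 ± 0.09 (SD, n = 3).

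Sst was the only one of the 9 genes with a probe printed more than once. That probe (NM_009215, chromosome 16, 23889776 to 23889835, mm9, minus strand) was printed as 10 spots on every array. The SD between the 10 spots of an array lay between 0.019 and 0.061, with a median of 0.047, against an SD of 0.099 between the 12 arrays. The array levels were 4.72, 4.82 and 4.76 in water, 4.65, 4.67 and 4.83 in low drinkers, 4.86, 4.79 and 4.61 in early high drinkers and 4.88, 4.87 and 4.62 in late high drinkers. The highest arrays were early pool 1 and late pools 1 and 2, and the lowest were pool 3 of both high drinker groups, a split inside the high drinkers like that of Trh, at a smaller size. It was not particular to Sst, since pool 3 was the lowest of both high drinker groups also for Ghrh, Trhr, Sstr2 and the bright probe of Sstr4. Without scaling between arrays, Sst was called higher in high than in low drinkers (0.18, SE 0.079, limma, unadjusted p = 0.0426), a setting in which the median of all probes moved by 0.13. Water and the 9 alcohol arrays differed by -0.016 (SE 0.072, limma, unadjusted p = 0.824).

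Gal (NM_010253, chromosome 19, 3411143 to 3411202, mm9, minus strand) had levels of 4.56, 4.67 and 4.54 in water and 4.53, 4.64 and 4.64 in low drinkers. The early high drinkers had 4.55, 4.67 and 4.42, and the late high drinkers had 4.34, 4.65 and 4.52. Late pool 1, which had the highest Trh, Ghrh and Sst levels of all arrays, had the lowest Gal level. The difference between alcohol and water was -0.036 (SE 0.073, limma, unadjusted p = 0.635).

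The somatostatin receptors held the other differences. Sequences of probes for Sstr1, Sstr3 and Sstr4 are shown because they decide what was measured for receptors whose signal was low. The 60 bases of each were read from the array files, 5′ to 3′, and each had at least 2 reading frames without a stop codon.
Sstr1: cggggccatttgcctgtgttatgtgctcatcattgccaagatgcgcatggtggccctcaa
Sstr3: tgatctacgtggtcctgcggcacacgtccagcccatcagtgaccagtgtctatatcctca
Sstr4: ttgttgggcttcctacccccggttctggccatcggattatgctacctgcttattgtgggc
Of the 60 bases, 55% were G or C in each of these 3 probes. The Sstr4 sequence is that of its dim probe (NM_009219), whose position on chromosome 2, 148221846 to 148221905, lies upstream of the bright probe (AK158660) at 148226245 to 148226304 (mm9, plus strand).

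Sstr1 was lower in late high drinkers than in water by 0.64 on the log2 scale, the largest difference of the 9 genes in that comparison. Its probe (NM_009216) lies on chromosome 12 at 59314287 to 59314346 (mm9, plus strand), and its unscaled signal was only 83.4 to 147, although well above background on all 12 arrays. The water pools had log2 levels of -3.71, -3.79 and -3.58, and the low drinker pools had -3.78, -3.40 and -4.16. The early high drinker pools had -3.79, -4.04 and -4.16, and the late high drinker pools had -4.19, -4.46 and -4.35. All 3 late arrays lay below every other array, and all 3 early arrays lay below every water array, while the low drinkers spanned the water and early levels. The 4 arrays of slide 3 had the 4 lowest levels, and early pool 3 and low drinker pool 3 were both at -4.16. Of 29521 probes measured on all 12 arrays, 13.5% had their late arrays below water, 5.58% their early arrays below water and 13% their late arrays below the early ones.

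The fitted difference of Sstr1 between late high drinkers and water was -0.64 (SE 0.17; limma, unadjusted p = 0.00447, adjusted p = 0.145), with an exact permutation p of 0.1, the smallest possible. High against low drinkers differed by -0.38 (SE 0.15, limma, unadjusted p = 0.0296, adjusted p = 0.299), and the exact permutation p was 0.0833. Alcohol against water differed by -0.34 (SE 0.19, limma, unadjusted p = 0.0888, adjusted p = 0.819). The group means ran from water at -3.69 ± 0.10 through low at -3.78 ± 0.38 and early at -3.997 ± 0.19 to late at -4.33 ± 0.13 (SD, n = 3 each), and limma gave an unadjusted p of 0.619 for low against water and 0.0851 for late against early. Early and low drinkers overlapped and were not fitted against each other. Within slide 3 the late pools lay -0.17 from early pool 3, and on slide 1 low drinker pool 1 lay -0.088 from the water mean, inside the range of the water pools. On slide 2 the early pools lay -0.13 from the low drinkers, but both early levels fell between those of low drinker pools 2 and 3, and the direction turned without low drinker pool 2. With slide as a fixed block the late difference was -0.39 (limma, unadjusted p = 0.392). The difference of high from low drinkers was -0.083 after quantile normalization (unadjusted p = 0.564) and -0.19 without low drinker pool 2 (unadjusted p = 0.167), the pool with the highest Sstr1 level and the raised 25th percentile. High and low drinkers also differed in the pituitary sum given above, without overlap. The Sstr1 difference also missed 0.05 without low drinker pool 1, early pool 3 or late pool 2 (-0.38, -0.34 and -0.35), without scaling (-0.25) and with slide as a fixed block (-0.22). Without low drinker pool 2, alcohol against water came to -0.42 (unadjusted p = 0.0107).

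Markers of other tissues differed between late high drinkers and water along with these receptors. The summed signal of 5 striatal genes, all well above background on all 12 arrays, was 4.49 to 4.88 times the 75th percentile in water, 4.62 to 4.65 in low drinkers, 4.04 to 4.86 in early and 3.97 to 4.25 in late high drinkers, and its 4 lowest values were those of slide 3. Sums in late high drinkers lay below those in water also for 5 cortical genes (0.36 to 0.438 against 0.45 to 0.471), 4 choroid plexus genes (2.19 to 2.47 against 2.48 to 3.19) and 3 blood genes (74.7 to 102 against 120 to 148). For 4 white matter genes they lay above it (161 to 191 against 139 to 159). Well above background on all 12 arrays were 2 of the cortical, 3 of the choroid plexus and all of the blood and white matter genes. The part of these tissues in the differences of Sstr1 and Sstr4 was not tested.

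Sstr2 showed small differences on its probe (chromosome 11, 113486976 to 113487035, mm9, plus strand). Its levels were -0.02, -0.06 and -0.26 in water, -0.15, -0.16 and -0.23 in low drinkers, -0.14, -0.16 and -0.21 in early high drinkers and 0.12, 0.06 and -0.19 in late high drinkers. Late pools 1 and 2 were the highest arrays, and late pool 3 lay among the others. Late high drinkers differed from water by 0.11 (SE 0.09, limma, unadjusted p = 0.25) and from early high drinkers by 0.17 (SE 0.09, limma, unadjusted p = 0.0888).

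Sstr3 was not measurable at these signals. Its probe (NM_009218, chromosome 15, 78370720 to 78370779, mm9, minus strand) was well above background on 1 of 12 arrays, an early high drinker array, and had no value that passed the signal/noise limit on 2 arrays, 1 of the low and 1 of the early high drinkers. The fit left these 2 arrays out, and no fold is given.

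The probes for Sstr4 gave different pictures. The bright probe had levels of -0.37, -0.33 and -0.41 in water, -0.34, -0.46 and -0.32 in low drinkers, -0.24, -0.38 and -0.55 in early high drinkers and -0.53, -0.60 and -0.70 in late high drinkers. Late pools 2 and 3 had the lowest levels, and late pool 1 and early pool 3, which were on the same slide, lay just above them, so that the 4 lowest arrays were the 4 of slide 3. The late difference from water was -0.25 (SE 0.08; limma, unadjusted p = 0.0157, adjusted p = 0.206), and that from early high drinkers was -0.22 (SE 0.08; limma, unadjusted p = 0.0253, adjusted p = 0.353). Within slide 3 the late pools lay -0.061 from early pool 3. With slide as a fixed block the late difference from water turned to 0.049 (limma, unadjusted p = 0.785). That from early high drinkers was the same -0.061, since only slide 3 holds both groups and early pools 1 and 2 do not enter it. Without scaling between arrays these differences were -0.12 and -0.067, and neither passed an unadjusted p of 0.05. Late against early high drinkers also missed 0.05 without early pool 1, early pool 2 or late pool 3, at -0.15, -0.22 and -0.18, and late against water did without late pool 3, at -0.20.

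The dim probe of Sstr4 followed the slides. Its levels were -2.81, -2.85 and -3.13 in water, -3.20, -2.42 and -2.51 in low drinkers, -2.50, -2.41 and -3.43 in early high drinkers and -3.35, -3.46 and -3.30 in late high drinkers. The 4 arrays of slide 1 lay between -3.20 and -2.81, those of slide 2 between -2.51 and -2.41 and those of slide 3 between -3.46 and -3.30, without overlap. Such a separation of the 3 slides was seen in 1.69% of the probes measured on all arrays, and the dim Sstr4 probe was the only one of the 9 member probes above background to show it. Late high drinkers differed from water by -0.44 (SE 0.27, limma, unadjusted p = 0.141) and from early pool 3 on the same slide by 0.058.

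**Figure D3:**
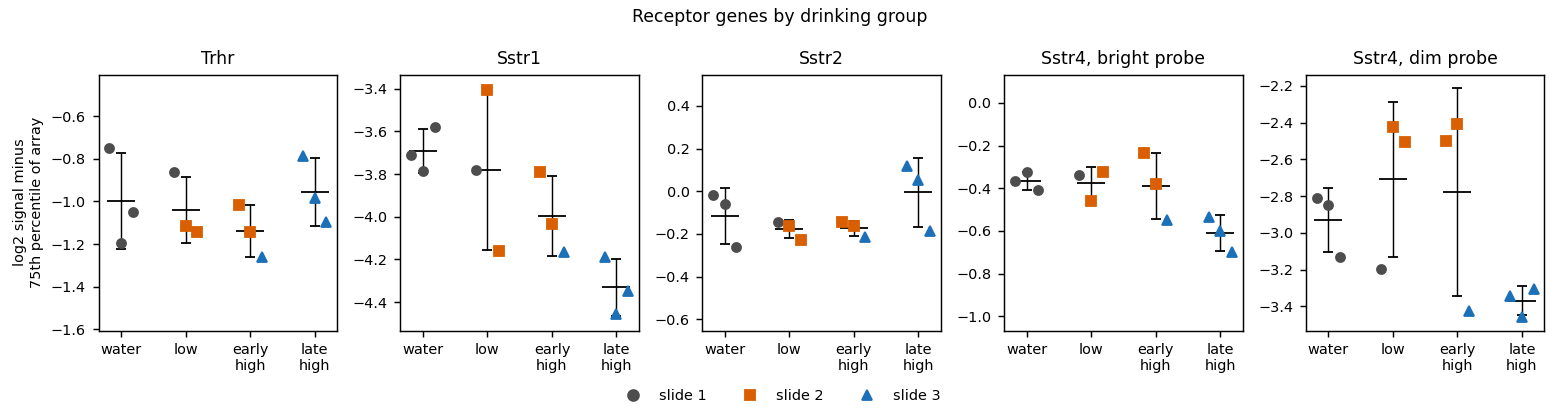
Log2 signal minus the 75th percentile of the array for Trhr, Sstr1, Sstr2 and both probes of Sstr4, with 1 point per pool shaped and colored by slide, and the group mean ± SD as bars. Early high drinker pool 3, the only early pool on slide 3, lay beside the late pools for both Sstr4 probes, at -0.55 on the bright and -3.43 on the dim probe.

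In none of the 6 limma comparisons did a member reach an adjusted p of 0.05, where the share of all probes that did was 0.218% for low drinkers against water, 0.0221% for high against low drinkers and 0% in the other 4. For alcohol against water 0 of 10 member probes had an unadjusted p under 0.05, where 5.53% of 32376 probes did, the methods' t-test also gave 0 of 10, and the median difference was -0.019 over the members and 0.027 over all probes tested. For low drinkers and for early high drinkers against water the count was 0 of 10 each, against 9.08% and 4.7% of 31622 probes. For late high drinkers against water 3 of 10 had one (Trh higher, Sstr1 and the bright Sstr4 probe lower), where 15.9% of all probes did, 6.97% higher and 8.94% lower. High against low drinkers gave 2 of 10 (Trh higher, Sstr1 lower) against 14.7% of all probes, 3.4% higher and 11.3% lower. Late against early high drinkers gave 1 of 10 (the bright Sstr4 probe, lower) against 12.4% of all probes called and 8.04% of all probes called lower. With 10 probes, a single probe is 10% of the members, and counts of 1 to 3 are not told apart here from the background. The shares over all probes moved with the scaling and with the array left out, as given at the end. The comparisons with water share the 3 water arrays, so they are not independent of each other.

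**Figure D4:**
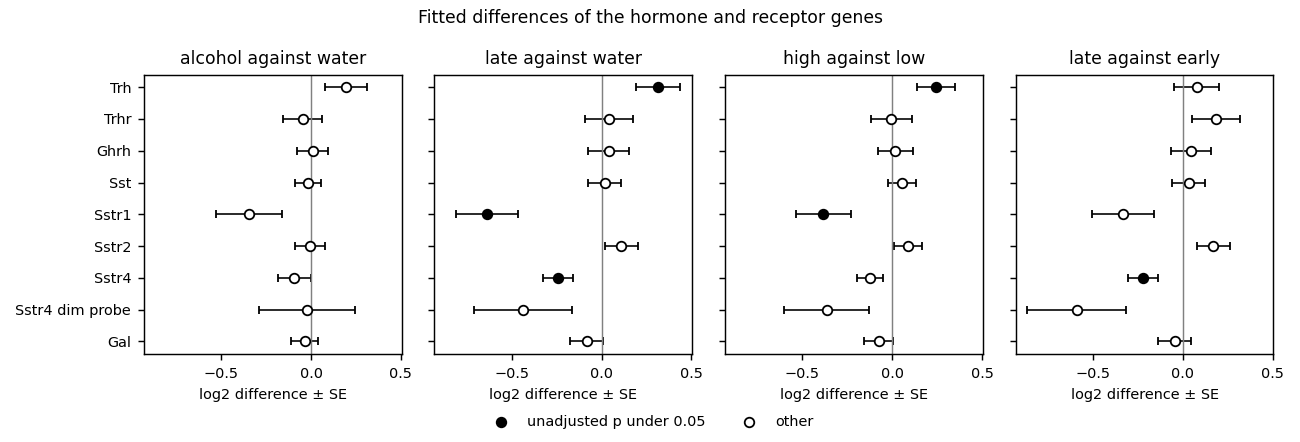
Fitted log2 differences ± SE of 9 member probes (Sstr3 left out) in 4 comparisons, with filled points for an unadjusted p under 0.05 in limma. Sstr1 at -0.64 and Trh at 0.32 stand farthest from 0 among the filled points of late high drinkers against water, and no point is filled for alcohol against water.

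Among the other genes of the thyroid axis, late high drinkers had higher Dio2, Thra and Arnt2 and lower Trhde than water at an unadjusted p under 0.05. The list held 13 genes, of which 12 were tested, so that 3 were called higher and 1 lower, against 6.97% and 8.94% of all probes. The median difference over the list was 0.13, and over all probes 0.0048. Dio2, which makes the active hormone from thyroxine, was higher by 0.47 (SE 0.18, limma, unadjusted p = 0.025), from -0.48 ± 0.11 to -0.01 ± 0.35 (SD, n = 3). Thra, a thyroid hormone receptor, was higher by 0.17 (SE 0.06) on its brightest probe and differed by -0.035 on its other probe. Arnt2, a transcription factor needed for paraventricular neurons, was higher by 0.24 (SE 0.10). Trhde, the ectoenzyme that cleaves thyrotropin-releasing hormone, differed by -0.27 (SE 0.12, limma, unadjusted p = 0.0414). With slide as a fixed block the Dio2 and Trhde differences turned to -0.10 and 0.23 and that of Thra came to 0.021 (unadjusted p = 0.895). Over 21 alternatives the unadjusted p stayed under 0.05 in 15 for Dio2, 15 for Thra, 16 for Arnt2 and 10 for Trhde. Trhde missed it with slide as a random block (-0.23), after quantile normalization (-0.25) and without scaling (-0.15). It also missed it without water pool 1 or 3, low drinker pool 3, early pool 2 or any late pool, at -0.28 to -0.22. With slide as a random block the calls of Dio2 and Thra were lost at differences of 0.42 and 0.16, close to those of the plain fit. The Dio2 call was also lost without water pool 1 or 3 or late pool 1 (0.42, 0.45 and 0.43) and without late pool 3 (0.31). That of Thra was lost without water pool 1 or 3 or late pool 2 (0.16, 0.17 and 0.15) and with normexp correction (0.17). That of Arnt2 was lost without water pool 1 or 3 or late pool 1 or 2 (0.25, 0.17, 0.19 and 0.20) and, at the larger difference of 0.34, with slide as a fixed block (unadjusted p = 0.173). Dio2 was also highest on late pool 3 at 0.30, the array with the highest thalamic sum.

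Dio3, the enzyme that inactivates thyroid hormone, was the gene of this list with the largest difference, and it was higher in low drinkers. Its levels were -3.71, -3.91 and -3.87 in water and -3.35, -2.09 and -3.18 in low drinkers. The early high drinkers had -3.86, -3.46 and -3.35, and the late high drinkers had -4.19, -3.65 and -4.08. Low drinker pool 2, the array with the raised 25th percentile, was far above all other arrays. Low drinkers differed from water by 0.96 (SE 0.30; limma, unadjusted p = 0.00978, adjusted p = 0.488) and high from low drinkers by -0.89 (SE 0.26; limma, unadjusted p = 0.00654, adjusted p = 0.208). With slide as a fixed block the former was 0.48, which is low drinker pool 1 alone against the water pools on slide 1. The latter was larger in size, at -1.34 (limma, unadjusted p = 0.00852). Without low drinker pool 2 the 2 differences were 0.56 (limma, unadjusted p = 0.0139) and -0.50 (limma, unadjusted p = 0.0147), the smallest with 1 array left out. The largest, 1.19 and -1.13, came without low drinker pool 1. Between late and early high drinkers, Thra differed by 0.19 on its brightest probe and by -0.13 on the other, and the former call was lost with slide as a fixed block (0.13) and when early pool 2 or late pool 2 was left out (0.12 and 0.16). Sim1, a transcription factor of the paraventricular nucleus, was higher by 0.57 (SE 0.22, limma, unadjusted p = 0.0281), a call lost with normexp correction at a smaller difference (0.22) and with slide as a fixed block at a larger one (0.69). It was also lost without early pool 2 or 3 or late pool 1 or 2, at differences of 0.58, 0.51, 0.49 and 0.57. For Thra and Sim1 the fixed slide block sets the late pools against early pool 3 alone.

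In the growth hormone list, 8 of 9 genes were tested. Ghr, the growth hormone receptor, differed between late high drinkers and water by -0.12 (SE 0.055, limma, unadjusted p = 0.0487), its 4 other probes ranged from -0.16 to 0.14, and its sign turned without scaling (0.0017) and with slide as a fixed block (0.013). Its unadjusted p stayed under 0.05 in 6 of 21 alternatives, over which the difference ran from -0.14 to 0.013. Ghrl, the gene of ghrelin, passed in low drinkers against water (limma, unadjusted p = 0.0231) on a probe that was well above background on 1 of 3 low and 2 of 3 water arrays, so no fold is given. That low drinker array was pool 2, and without it the call was lost (unadjusted p = 0.0532). It was also lost after quantile normalization, with slide as a fixed block and without water pool 1. The other probe of Ghrl, the dimmer one, differed by 0.62 in the same comparison. Ghrhr, the receptor of Ghrh, passed an unadjusted p of 0.05 in 4 comparisons, but it was well above background on 1 of 12 arrays and no fold is given. Over 18 alternatives its call held in 10 for low drinkers against water and in 10 for late high drinkers against water. For high against low drinkers and for late against early high drinkers it held in 17 of 18 each. Of the 8, 2 were thus called higher in low drinkers against water and 2 lower in late high drinkers against water, with Ghrhr in both counts, where 8.33% and 8.94% of all probes were.

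Of 3 galanin genes tested, Galr3, a galanin receptor, was lower in late than in early high drinkers, with a log2 difference of -0.63 (SE 0.19; limma, unadjusted p = 0.00765, adjusted p = 0.32), which made 1 of 3 where 8.04% of all probes were called lower. Like the dim Sstr4 probe it separated by slide, with -2.58 to -2.48 on slide 1, -2.25 to -2.02 on slide 2 and -3.03 to -2.80 on slide 3. The late pools lay -0.12 from early pool 3, which is also the difference with slide as a fixed block. Over 21 alternatives the call held in 20, and the difference ran from -0.89 to -0.12. Of the 7 genes for the processing of peptide hormones, Cpe, which trims the ends of prohormone fragments, was higher in alcohol than in water by 0.10 (SE 0.05, limma, unadjusted p = 0.0449), and its other probe differed by 0.018. That was 1 of 7, where 3.85% of all probes were called higher. The Cpe call held in 5 of 23 alternatives, over which the difference ran from 0.016, after quantile normalization, to 0.12. At an adjusted p of 0.05, limma called 0 of the genes in these 4 lists.

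Among 17566 genes well above background on all 12 arrays, those whose levels ran most like each hormone gene were named as a description, since the 12 arrays share slides and tissue makeup. Closest to Trh were Odz4 (Pearson r = 0.943, Spearman rho = 0.93), Arpc4 (r = 0.934) and Ppme1 (r = 0.932). Without the 2 arrays whose Trh lay farthest from its median, these r values were 0.919, 0.87 and 0.871. Closest to Sst were Ap1m1 (r = 0.903, rho = 0.881), Gatad2b (r = 0.863) and Rac2 (r = 0.851), with 0.892, 0.765 and 0.794 when the 2 arrays farthest in Sst were left out. Closest to Gal were Slc7a7 (r = 0.94, rho = 0.79), the transcript AK088929 (r = 0.888) and Tctn3 (r = 0.87), which fell to 0.813, 0.617 and 0.779 in the same way. Closest to Ghrh were a transcript without a gene name (r = 0.917, rho = 0.874), 5730453I16Rik (r = 0.903) and Susd3 (r = 0.895), with 0.842, 0.905 and 0.791 without the 2 farthest arrays.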

How the data were processed

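The authors deposited, per array, Agilent Feature Extraction output (version 10.5.1.1 in the file headers; the methods name another version), with background-subtracted, detrended signal intensity on a linear scale and no scaling between arrays. A table of the same intensities was also deposited and equaled the scanner values within 0.01 on the log2 scale. Here each log2 intensity was lowered by its array's 75th percentile over 43379 spots that were not controls, a signal of 1512 to 1853. Non-uniform outlier spots were dropped, as was any spot with a signal/noise ratio below 2 (here the processed signal over its error as the scanner software gives it, since the methods do not define the ratio), and spots of a probe were averaged. For Sst, 14 of 120 spots flagged as population outliers were kept. Groups were compared with limma 3.58.1 (R 4.3.3, Benjamini-Hochberg over all probes), in a fit of 2 groups for alcohol against water (values on at least 2 water and 5 alcohol arrays) and of 4 groups otherwise (at least 2 of 3 in each). Exact permutation tests were 2-sided. Pools of different mice were the replicates.

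Every member probe is named, and the brightest stands for its gene. A gene of the lists for the thyroid axis, growth hormone axis, galanin and peptide processing is named where its unadjusted p was under 0.05. The members, lists and tests were chosen with earlier results of these data known. No pair of arrays was identical. On simulated data with 200 of 32376 probes moved by 1 on the log2 scale, 165 passed an adjusted p of 0.05 for alcohol against water and 151 for late high drinkers against water. False calls were 4 and 8. The simulated arrays were independent and held no slide effect, and a move of 1 exceeds every member difference in these comparisons. The simulation therefore does not tell how often differences of the size seen here would pass. Positions are those of mm9 in the files, and promoters are of GRCm38.p6. Figures used matplotlib 3.10.9. Real-time PCR was not analyzed here.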

Additional observations from a re-analysis of the deposited data

How the results depend on the processing

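No member passed an adjusted p of 0.05 in limma in any comparison under any alternative run. Counts of members with an unadjusted p under 0.05 did move. For alcohol against water, 0 became 1 (Sstr1) after quantile normalization, without scaling and as the mean of low, early and late drinkers in the fit of 4 groups. For low drinkers against water, 0 became 1 after quantile normalization (Sstr1) and without scaling (Sstr3). For early high drinkers against water, 0 became 1 (Sstr1) after quantile normalization. For late high drinkers against water, 3 became 0 with slide as a fixed block and 2 (Sstr1 and Trh) without scaling. High against low drinkers went from 2 to 0 after quantile normalization, to 1 (Sstr1) without the signal/noise filter, and to 3 without scaling (Sst, Sstr2 and Trh, all higher) and with normexp correction (Sstr1, Sstr3 and Trh). Late against early high drinkers went from 1 to 3 with normexp correction (Sstr1 and both Sstr4 probes) and to 0 with slide as a fixed block, and without scaling the 1 was Sstr2, higher, in place of Sstr4. The cause was not tested. Leaving out 1 array gave 0 to 1 for alcohol, 0 for low, 0 to 2 for early and 2 to 4 for late high drinkers against water, 0 to 2 for high against low and 0 to 2 for late against early. The highest counts came without early pool 3 for early (Trh and the dim Sstr4 probe) and late high drinkers against water. Trh was called for early high drinkers also without late pool 3, Sstr1 without low drinker pool 2 or 3, and Sstr2 in late high drinkers against water and against early ones without late pool 3. Counts of 0 for high against low came without low drinker pool 2 or late pool 2, and for late against early without early pool 1 or 2. Over all probes, low drinkers against water gave 2870 of 31622 at an unadjusted and 69 at an adjusted p under 0.05 in limma. Without low drinker pool 1 these counts were 6258 of 30662 and 2482, and without low drinker pool 2 they were 1105 of 30381 and 1. For high against low drinkers, 7 probes at an adjusted p under 0.05 became 2255 without low drinker pool 1 and 0 without pool 2.

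The replicate numbers do not pair the samples: deviations of 18 same-numbered pairs correlated from -0.0893 to 0.183, and 3 of them over 0.1. With the replicate number as a block, low drinkers against water gave 1 (Sstr3), high against low 3 (Sstr1, Sstr3 and Trh) and late against early high drinkers 3 (Sstr2, Sstr4 and Trhr), while late high drinkers against water stayed at 3.

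For alcohol against water no member was called. With slide as a fixed block this comparison is low drinker pool 1 against the water pools on slide 1, and no other alcohol array enters it. In that fit the sign turned for Trh (-0.021), Trhr (0.13), Ghrh (-0.13) and Sstr4 (0.027). It also turned with slide as a random block for Trhr (0.00011) and Ghrh (-0.027), and with normexp correction for Sstr2 (0.019). Without 1 array the difference ranged from -0.15 to 0.077 for Trhr, -0.042 to 0.047 for Ghrh, -0.039 to 0.010 for Sst, -0.080 to 0.042 for Sstr2, -0.12 to 0.042 for the dim Sstr4 probe and -0.059 to 0.0032 for Gal. For late high drinkers against water, slide as a fixed block turned Sstr4 (0.049), Trhde (0.23), Dio2 (-0.10) and Ghr (0.013), and Ghr came to 0.0017 without scaling. Without scaling, the median of all probes moved by 0.12 for late high drinkers against water, 0.13 for high against low and 0.15 for late against early, so that falls there are smaller and rises larger. Counts of all probes with an unadjusted p under 0.05 in limma turned too. High against low had 1076 higher and 3578 lower, but 2808 and 1972 after quantile normalization and 3359 and 1427 without scaling. Without scaling, late high drinkers against water went from 2204 higher and 2828 lower to 4570 and 862. Late against early went from 1383 and 2541 to 4395 and 826.

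Fixed slide blocks compare groups within slides only, and no water array was on slide 2 or 3. The number of arrays limits the precision throughout, and Sstr3 lay too near the background for a level.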
